A study of Bos taurus with 8 samples.

Results

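The data described here are the array signals of 8 transcription factors of the hepatocyte lineage, FOXA1, FOXA2, FOXA3, CEBPA, CEBPB, ONECUT1, PROX1 and GATA4, in the fetal liver of Japanese Black cattle. Probes were assigned to these genes by the RefSeq accession that the array files give for each probe. Of the 8 genes, 7 had a matched probe, with 13 probes in all, and FOXA2 had 0 matched probes and was not analysed here. The 13 probes were all well above background on all 8 arrays, out of 33439 probes of the whole array that were detected, and the 7 genes stand beside 10860 genes with a detected probe.

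Liver identity is set by a small network of transcription factors that bind one another's genes. FOXA proteins open chromatin at liver genes before the organ forms, and GATA4 acts with them in the earliest liver bud. PROX1 lets hepatoblasts, the fetal precursors of hepatocytes and bile duct cells, leave the bud and expand, and ONECUT1 takes part in the choice between those fates. CEBPA and CEBPB, of the leucine zipper family, act later, on genes of glucose, amino acid and plasma protein metabolism in hepatocytes.

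The LN group held 4 fetuses whose dams were fed 60% of their nutritional requirement in gestation, and the HN group 4 fetuses whose dams were fed 120%. All were 8.5 months post-conception and, by the study's methods, came from male-sorted semen of the same sire. The LN fetuses were the lightest and the HN fetuses the heaviest of a larger set, so the groups differ in the choice by weight as well as in diet, and no group was fed the plain requirement. The labels give 1 fetus per array, named L5, L6, L8 and L9 in LN and L1, L2, L3 and L10 in HN, while the series design mentions pools of RNA made for each group. The arrays are treated here as 8 separate fetuses. Each group lay on a slide of its own, so slide and diet cannot be told apart.

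Between 32635 and 34369 of 43803 spots were well above background per array, and 0 were saturated. Of 10 hepatocyte markers, 9 had a detected probe, APOB being the exception, and their mean log2 signal lay between 17.75 and 17.97 in the 8 fetuses. Most of them lie among the brightest probes, to which quantile normalization gives nearly the same values in every array. The narrow range therefore says little about the share of hepatocytes. All values below are log2 of the processed intensity after quantile normalization between arrays, unless stated otherwise. They compare fetuses and not genes, since probes differ in how strongly they hybridise. A gene with more than 1 probe is represented by the probe of higher mean signal, called its main probe.

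On both of its probes PROX1 had a lower signal in every LN fetus than in any HN fetus, though the difference did not pass the threshold after adjustment over the array. PROX1 encodes a homeodomain protein that acts in hepatoblasts, in hepatocytes and, outside the parenchyma, in lymphatic endothelium. On the main probe the log2 signals in LN were 9.16 in L5, 9.31 in L6, 9.30 in L8 and 9.01 in L9. In HN they were 9.66 in L1, 9.47 in L2, 9.51 in L3 and 9.65 in L10. The gap between the groups, from L6 to L2, was smaller than the range within either group.

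The mean level of PROX1 was 9.196 ± 0.14 for LN and 9.57 ± 0.098 for HN (SD, n = 4 per group). The log2 difference was -0.38 (standard error 0.12, 95% confidence interval -0.64 to -0.11), which puts the LN signal at 0.771 times that of HN. Its exact permutation p was 0.0286, the smallest that 4 fetuses against 4 can give in a 2-sided test. By limma the unadjusted p was 0.0116 and the p adjusted over all detected probes was 0.760, above the threshold of 0.05. In whole liver, fewer cells that hold a transcript and less of it per cell cannot be told apart.

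On the other PROX1 probe the signals were 8.64 in L5, 8.46 in L6, 8.69 in L8 and 8.34 in L9, against 8.97 in L1, 8.91 in L2, 8.80 in L3 and 9.05 in L10. The groups were again apart, with L8 the highest of LN and L3 the lowest of HN. The log2 difference on this probe was -0.40 (standard error 0.12, 95% confidence interval -0.68 to -0.12), with a limma adjusted p of 0.760. Among 3669 genes with 2 detected probes, 11 were lower in LN without overlap on both, which is 0.3% of them, and 20 were higher, which is 0.545%. PROX1 is among the 11.

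**Figure D1:**
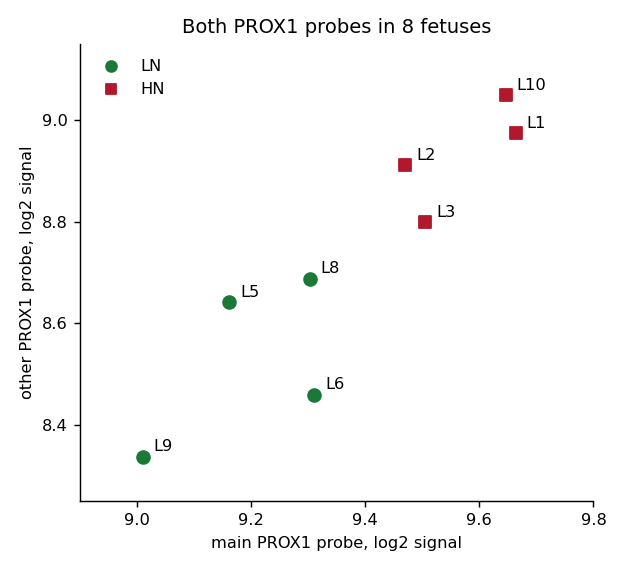
Log2 signal of the main PROX1 probe (horizontal axis) and the other PROX1 probe (vertical axis) in each of the 8 fetuses, green circles for LN and red squares for HN. The 4 LN fetuses lie at or below 9.31 and 8.69 and the 4 HN fetuses at or above 9.47 and 8.80.

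Of the 7 measured factors, PROX1 alone reached a limma p of 0.05 before adjustment. Of all 10860 genes 6.05% did so, 2.75% lower and 3.3% higher in LN. PROX1 was also the only factor of the 7 without overlap between the groups, which 4.14% of all genes showed, 1.56% lower and 2.59% higher in LN. By limma, 0 of 10860 genes passed an adjusted p of 0.05, against 657 before adjustment. Over 33439 probes, limma gave 0 after and 2113 before adjustment (6.32%), and the same test without moderation of the variances gave 0 and 2285 (6.83%). Of the 7 factors, 4 were lower and 3 higher in LN, beside 48.4% of all genes lower, but 2 were lower without L5 and 6 with no normalization between arrays. The median difference over the 7 was -0.052, and that over all genes was 0.0075.

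**Figure D2:**
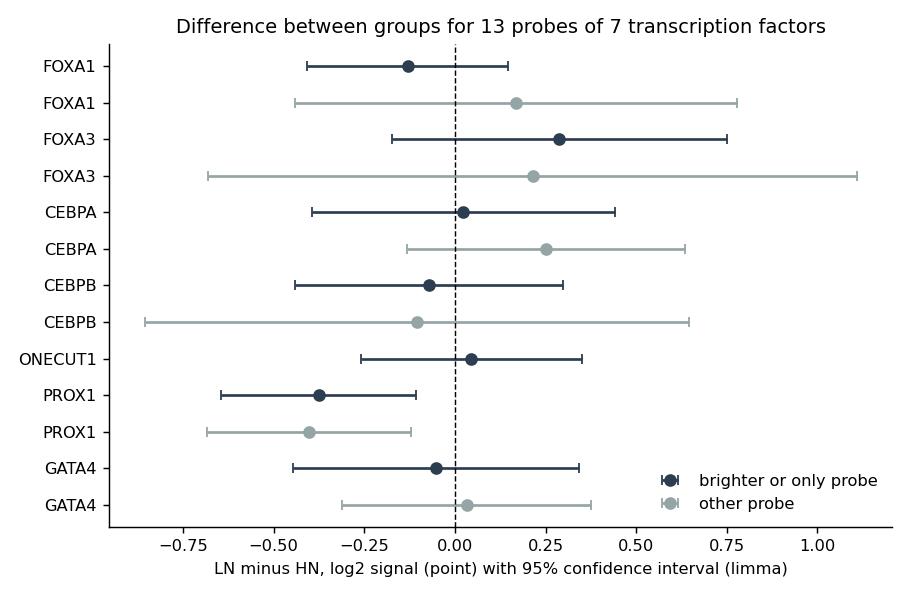
Difference in log2 signal, LN minus HN, for the 13 probes of the 7 factors, with the 95% confidence interval of limma as a bar, dark for the main or only probe and grey for the other probe of the same gene. The intervals of the PROX1 probes, from -0.64 to -0.11 and from -0.68 to -0.12, lie below 0, and those of the other 11 probes span 0.

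The separation of the groups in PROX1 depended on scaling the arrays to each other. Before normalization the processed intensities of the main probe were 731.5, 496.9, 684.9 and 417.2 in L5, L6, L8 and L9, and 897.4, 852.7, 689.0 and 704.0 in L1, L2, L3 and L10. L5 then lay above L3 and L10, and the log2 difference was -0.46 (limma adjusted p = 0.835). The pooled SD within groups was 0.30 before and 0.12 after quantile normalization, and 0.12 with scaling to the 75th percentile. The whole array shifted too, since the median of all genes was -0.10 in LN against HN without normalization. Leaving out any of the 8 fetuses gave a difference from -0.41 to -0.31. With the position on the slide as a block, limma gave 0.0470 before and 0.940 after adjustment.

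Markers of other cell types were set beside PROX1, and their part in its difference was not tested. Of 5 lymphatic markers, PDPN and FLT4 had no detected probe. CCL21, a chemokine of lymphatic vessels, differed by -1.08 (limma adjusted p = 0.785, standard error 0.45, exact permutation p = 0.114) with overlap between the groups, and LYVE1 and RELN by 0.29 and 0.18. The mean log2 signal of the 3 ran from 11.06 to 11.60 in LN and from 11.29 to 11.71 in HN.

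Of 10 neutrophil markers, 8 had a detected probe, 7 of the 8 had a higher mean in LN, and CEBPE and CSF3R were not detected or not matched. CATHL4, MPO and ELANE, granule protein genes of neutrophils and their precursors, were higher in every LN fetus than in any HN fetus, though with limma adjusted p of 0.760 each. The mean log2 signal of the 8 markers ran from 9.41 to 10.69 in LN and from 8.36 to 9.50 in HN. Of 10 erythroid markers, 7 had a detected probe, and all 7 had a higher mean in LN, with a median difference of 1.32. Their mean log2 signal differed by 1.35 between the groups (exact permutation p = 0.286), with L5 at 11.14 and the other 7 fetuses between 5.76 and 7.79. Of the 8 marker lists, the neutrophil list was the only 1 whose Pearson correlation with PROX1 over the 8 fetuses passed adjustment (r = -0.87, exact permutation p = 0.00600, adjusted 0.0480). Spearman's rho was -0.71 (exact permutation p = 0.0576, adjusted 0.332), and without L9 and L1 r was -0.66. PROX1 separates the groups, so this r holds the difference between them. Within LN it was -0.59 and within HN -0.99, with 4 fetuses in each. Without L5 the PROX1 difference was -0.36, and without L9, the fetus with the highest neutrophil markers, it was -0.31.

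The means of the remaining marker lists overlapped between LN and HN. Those of 8 stellate markers differed by -0.061, of 8 endothelial markers by 0.056, of 7 macrophage markers by -0.12, of 6 bile duct markers by 0.14 and of the 9 hepatocyte markers by 0.045 on the log2 scale. The hepatocyte value was held small by quantile normalization, since most of these markers lie among the brightest probes. It does not measure the share of hepatocytes. KRT7, a keratin of bile ducts, differed by 0.67 (limma adjusted p = 0.785, standard error 0.27, exact permutation p = 0.0571).

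**Figure D3:**
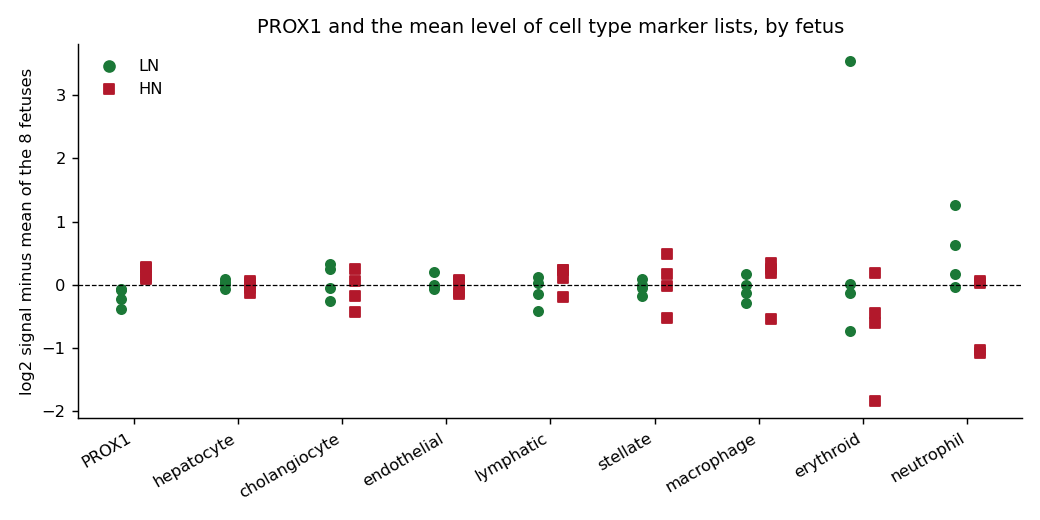
Log2 signal of PROX1 and mean log2 signal of 8 lists of cell type markers, each as the difference from the mean of the 8 fetuses (vertical axis), green circles for LN and red squares for HN. PROX1 is the only column without overlap between the groups, the erythroid list has L5 far above the rest, and the neutrophil list has its highest values in LN.

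Both measured FOXA genes overlapped between the groups. FOXA1 and FOXA3 are forkhead factors that prepare liver genes for transcription, and FOXA3 is the form that rises as hepatocytes mature. FOXA1 was 7.76, 8.08, 8.00 and 7.95 in L5, L6, L8 and L9, and 8.18, 7.90, 8.16 and 8.08 in L1, L2, L3 and L10. All LN fetuses but L5 lay within the range of HN, and the difference was -0.13 (standard error 0.12, 95% confidence interval -0.41 to 0.15, exact permutation p = 0.229). Leaving out single fetuses gave -0.19 to -0.068, the latter without L5. The other FOXA1 probe, with intensities of only 21 to 78.88 before normalization, differed by 0.17 (standard error 0.27). When arrays were scaled to the 75th percentile it differed by -0.0022.

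FOXA3 was 14.95, 14.14, 14.94 and 14.55 in L5, L6, L8 and L9, and 14.51, 14.52, 14.09 and 14.29 in L1, L2, L3 and L10. L5, L8 and L9 were above every HN fetus, and L6 was below all but L3. The difference was 0.29 (standard error 0.20, 95% confidence interval -0.17 to 0.75, exact permutation p = 0.200, limma adjusted p = 0.834). The other FOXA3 probe differed by 0.21 (standard error 0.39). Without L6 the FOXA3 difference was 0.45, the groups did not overlap, and limma gave 0.0267 before and 0.761 after adjustment. It was 0.19 without L5, 0.19 without L8 and 0.20 without L3, so the size of the difference moved with single fetuses in both directions. The main and the other probe of FOXA3 followed each other over the 8 fetuses (Pearson r = 0.94, exact permutation p = 0.00241, adjusted over 6 genes 0.00722), and without L5 and L3 r was 0.88. Spearman's rho was 0.86 (exact permutation p = 0.0107, adjusted 0.0321), and within LN and HN r was 0.99 in each. PROX1, whose groups are apart, was the other of the 6 genes to pass, with r of 0.59 within LN and 0.76 within HN. The remaining 4 did not pass, with r of 0.70 for GATA4, 0.20 for CEBPB, -0.36 for CEBPA and -0.70 for FOXA1 (exact permutation p = 0.0566, 0.634, 0.403 and 0.0518, adjusted 0.0849, 0.634, 0.484 and 0.0849). Their rho was 0.67, -0.048, -0.21 and -0.64 (adjusted exact permutation p = 0.144, 0.935, 0.743 and 0.144), and without the fetuses farthest from the median r was 0.56, -0.41, 0.31 and -0.74.

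The C/EBP genes overlapped too. CEBPA encodes the factor that holds hepatocytes in a differentiated, resting state, and its main probe was 14.22, 14.91, 14.37 and 14.73 in L5, L6, L8 and L9, and 14.52, 14.32, 14.83 and 14.48 in L1, L2, L3 and L10. LN held both the lowest and the highest fetus. The difference was 0.023 (standard error 0.18, 95% confidence interval -0.39 to 0.44, exact permutation p = 0.943), below its standard error. The other CEBPA probe, with intensities of only 11.4 to 18.87 before normalization, differed by 0.25 (standard error 0.17) and by 0.0074 after normexp background correction.

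CEBPB, which responds to inflammatory and hormonal signals, was 8.32, 8.99, 8.45 and 8.56 in L5, L6, L8 and L9, and 8.70, 8.44, 8.70 and 8.76 in L1, L2, L3 and L10. L6 was above and L5 below all HN fetuses. The difference was -0.071 (standard error 0.16, 95% confidence interval -0.44 to 0.30, exact permutation p = 0.686), and the other, dimmer probe differed by -0.10 (standard error 0.33), by -0.31 with scaling to the 75th percentile and by -0.022 after normexp, and from -0.34 to 0.084 with single fetuses left out.

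ONECUT1, a cut homeodomain factor that acts on hepatocyte and bile duct genes, had 1 probe. Its signals were 11.55, 11.77, 11.89 and 11.47 in L5, L6, L8 and L9, and 11.60, 11.62, 11.80 and 11.48 in L1, L2, L3 and L10. The HN values lay within the LN range, and the difference was 0.046 (standard error 0.13, 95% confidence interval -0.26 to 0.35, exact permutation p = 0.743). GATA4, a zinc finger factor of the liver bud and, later, of sinusoidal and stellate cells, was 10.51, 10.53, 11.13 and 10.66 in LN and 10.57, 10.80, 10.64 and 11.02 in HN, in the same order of fetuses. L8 and L10 were the highest of their groups, and the difference was -0.052 (standard error 0.17, 95% confidence interval -0.45 to 0.34, exact permutation p = 0.714). The other GATA4 probe, with intensities of only 18.81 to 41.99 before normalization, differed by 0.033 (standard error 0.15). It differed by -0.16 with scaling to the 75th percentile and by -0.0037 after normexp.

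The intervals of FOXA1, FOXA3, CEBPA, CEBPB, ONECUT1 and GATA4 all span 0, the widest being that of FOXA3, which reaches 0.75. The directions of CEBPA, CEBPB, ONECUT1 and GATA4 turned when single fetuses were left out, and that of FOXA1 turned in the mean over its 2 probes.

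**Figure D4:**
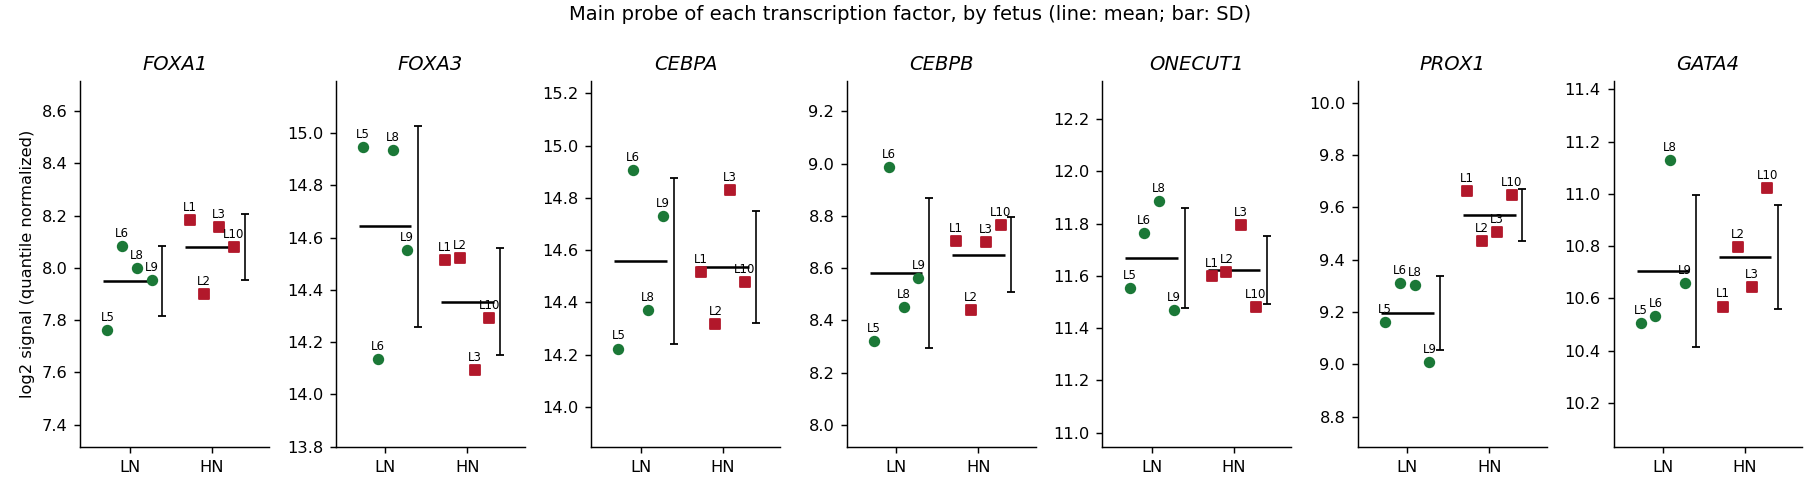
Log2 signal of the main or only probe of each factor in the 8 fetuses, LN as green circles and HN as red squares, with the group mean as a line and its SD as a bar; every panel spans 1.4 on the log2 scale. PROX1 is the only factor whose groups do not overlap, and in FOXA3 the LN fetuses spread from 14.14 to 14.95.

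The factors also varied among the fetuses in a way that crossed the groups. After normalization FOXA3 was high where CEBPA and CEBPB were low. Over the 8 fetuses Pearson's r was -0.79 for FOXA3 and CEBPA (exact permutation p = 0.0228), -0.84 for FOXA3 and CEBPB (p = 0.0101) and 0.80 for CEBPA and CEBPB (p = 0.0188). Spearman's rho was -0.76, -0.79 and 0.79 (exact permutation p = 0.0368, 0.0279 and 0.0279). Of 21 pairs of factors, 4 had an exact permutation p of at most 0.05 for r, FOXA1 and CEBPB being the other pair, and 0 passed after adjustment (lowest adjusted p = 0.127, and 0.154 for rho). Within LN r was -0.96, -0.97 and 0.92 for these 3 pairs and within HN -0.85, -0.53 and 0.57, with 4 fetuses in each. Without the fetuses farthest from the median, r was -0.62, -0.85 and 0.62.

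The same signals were set beside the brightness of the arrays, and of 13 probes 0 had a correlation with it that passed adjustment, against 4 before adjustment. The 75th percentile of log2 intensity before normalization ran from 8.997 in L6 and 9.05 in L9 to 9.62 in L2 and 9.72 in L5. Its Pearson correlation with normalized CEBPA was -0.85 (exact permutation p = 0.0112, adjusted over 13 probes 0.0730) and with CEBPB -0.78 (exact permutation p = 0.0245, adjusted 0.0796). The largest in size of the 13 was that of the other FOXA1 probe (r = 0.89, rho = 0.83, exact permutation p = 0.00466 and 0.0154, adjusted 0.0606 and 0.09995), with 0.77 without L5 and L6. With FOXA3 it was 0.67 on the main probe and 0.82 on the other (exact permutation p = 0.0770 and 0.0172, adjusted 0.200 and 0.0746). Spearman's rho was -0.83 for CEBPA, -0.76 for CEBPB and 0.55 and 0.79 for the FOXA3 probes (exact permutation p = 0.0154, 0.0368, 0.171 and 0.0279, adjusted 0.09995, 0.120, 0.445 and 0.120). Without L5 and L6, the farthest in brightness, r for these 4 probes was -0.69, -0.48, 0.36 and 0.65. The part of brightness in the relations between the factors was not tested. Within LN and HN, r with CEBPA was -0.98 and -0.55, and with FOXA3 on the main probe 0.88 and 0.78.

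The CEBPA signal was nearly level before normalization. Its processed intensity lay between 21590 and 25860 in the 8 fetuses, a range of 0.26 on the log2 scale, which became 0.68 after quantile normalization and 0.74 after scaling to the 75th percentile. For 961 genes with a mean log2 intensity of at least 13, by contrast, the median range fell from 0.85 to 0.52 with quantile normalization. FOXA3 ranged over 1.48 before and 0.85 after it. Before normalization r was -0.079 for FOXA3 and CEBPA (exact permutation p = 0.846) and 0.22 for FOXA3 and CEBPB (exact permutation p = 0.646), with adjusted p of 0.846 and 0.678 over 21 pairs. The opposite courses of FOXA3 and CEBPA were present in the quantile-normalized values and not in the intensities, and the reason was not tested. Their r was not computed after scaling to the 75th percentile. In the intensities PROX1 instead followed FOXA1 (r = 0.96, exact permutation p = 0.000397, adjusted 0.00833) and CEBPB (r = 0.86, exact permutation p = 0.00367, adjusted 0.0385), with rho of 0.83 and 0.88 (adjusted exact permutation p = 0.129 each). Without the fetuses farthest from the median r was 0.84 and 0.47, and within LN and HN it was 0.98 and 0.89 for FOXA1 and 0.76 and 0.93 for CEBPB. After quantile normalization neither pair passed, with r of 0.65 for FOXA1 and 0.38 for CEBPB (exact permutation p = 0.0811 and 0.358, adjusted 0.281 and 0.836). Their rho was then 0.71 and 0.52 (adjusted exact permutation p = 0.173 and 0.459). Array brightness is shared by all values of an array. Its r with the intensity of PROX1 was 0.79 and with that of FOXA1 0.83 (adjusted exact permutation p = 0.0275 and 0.0217). With the intensity of CEBPB it was 0.57 and did not pass (exact permutation p = 0.129, adjusted 0.152).

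**Figure D5:**
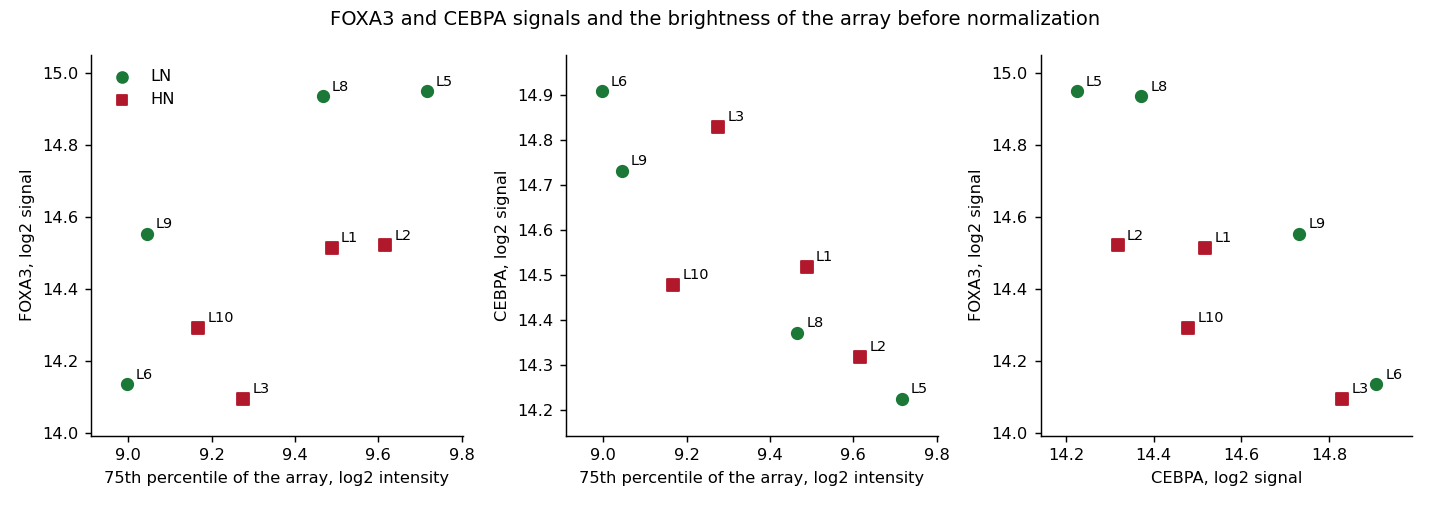
Normalized log2 signals of FOXA3 and CEBPA against the 75th percentile of log2 intensity of each array before normalization (left and middle) and against each other (right), with LN as green circles and HN as red squares. CEBPA is lowest in L5, the brightest array at 9.72, and highest in L6, the dimmest at 8.997, while FOXA3 is highest in L5.

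For each factor the gene of most like course over the 8 fetuses was sought among 10859 others. By Pearson's r it was DRC3 for FOXA1 (0.98), TSFM for FOXA3 (0.98), DCAF15 for CEBPA (0.99), ZKSCAN5 for CEBPB (0.96), MYF6 for ONECUT1 (0.93), ROM1 for PROX1 (0.98) and TUFT1 for GATA4 (0.98). The number of genes with r over 0.9 was 275 for CEBPA and 83 for FOXA3, and between 3 and 21 for the other 5 factors. All share the same 8 arrays and their scaling, and with so many genes compared high values arise readily.

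Other regulators of the network were measured in a list of 30, of which 19 had a detected probe. Of these, 8 were higher and 11 lower in LN, with a median of -0.033, and 0 reached a limma p of 0.05 before adjustment or lay apart between the groups. The following were picked after their values were seen. HNF4A, the nuclear receptor at the centre of the hepatocyte network, differed by -0.070 (standard error 0.16), and NR5A2, a receptor whose activity PROX1 represses, by -0.27 (standard error 0.23). CEBPG, a C/EBP partner in heterodimers, was the closest to the threshold, with a difference of 0.35 (limma adjusted p = 0.785, standard error 0.16, exact permutation p = 0.0857). PPARGC1A, a coactivator of gluconeogenic genes in fasting, differed by -0.40 (standard error 0.22).

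Genes commonly given as targets of liver transcription factors were counted in 4 lists, for which no binding data were used. Of 10 gluconeogenic and amino acid enzyme genes with IGFBP1, 6 were lower and 4 higher in LN, with a median of -0.043, and G6PC1, PCK1 and FBP1, all lower, reached a limma p of 0.05 before adjustment (adjusted p = 0.760, 0.760 and 0.785). Of 16 plasma protein genes 7 were lower and 9 higher (median 0.0057), of 12 acute phase genes 8 were lower and 4 higher (median -0.061), and of 4 bile acid genes 2 were lower and 2 higher (median -0.16). In these 3 lists 0 genes reached a limma p of 0.05 before adjustment and 0 lay apart. Many of the plasma protein genes lie among the brightest probes, where quantile normalization leaves little room for a difference.

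G6PC1, PCK1 and FBP1, enzymes of glucose release, did not divide the fetuses as PROX1 did. HN fetus L3 was at 7.93 in G6PC1, 7.88 in PCK1 and 14.22 in FBP1, among the LN fetuses, while its PROX1 signal of 9.51 lay with HN. The other targets set against the factors differed by -0.59 for CPS1 (0.33), 0.073 for TAT (0.14), -0.086 for IGFBP1 (0.35), 0.34 for AFP (0.36), 0.0066 for ALB (0.096), 0.044 for TTR (0.096) and 0.044 for SERPINA1 (0.10), with standard errors in parentheses. Of 63 relations between a factor and these genes or G6PC1 and PCK1, 4 had an exact permutation p of at most 0.05 for Pearson's r and 0 passed after adjustment (lowest adjusted p = 0.536). The 2 of these without PROX1 were CEBPB with IGFBP1 and FOXA1 with AFP. For CEBPB and IGFBP1, the gene of an insulin-repressed growth factor carrier, r was 0.79 (exact permutation p = 0.0206) and rho 0.64 (exact permutation p = 0.0962, adjusted 0.732), and r was 0.47 without L5 and L6. The other 2 were PROX1 with TTR and with PCK1, with r of -0.84 and 0.77 over all 8 fetuses (exact permutation p = 0.0149 and 0.0255, adjusted 0.536 each). For these pairs Spearman's rho was -0.79 and 0.71 (adjusted exact permutation p = 0.732 each), and without L9 and L1 r was -0.77 and 0.88. Since the normalized PROX1 values fall into separate groups of 4, these r hold the difference between the groups, and within LN and HN r was -0.84 and -0.58 for TTR and 0.20 and 0.57 for PCK1. TTR ran only from 18.32 to 18.42 in the 8 fetuses. At this top end of the array quantile normalization leaves a few shared values, so r for TTR rests on small changes of rank.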

How the data were processed

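RNA from the livers of 8 fetuses, 4 per group, was hybridised in 1 colour to Agilent bovine arrays. The authors deposited scanner output of Agilent Feature Extraction 11.0.1.1, in which the processed intensity has had background and spatial trend removed per array, and a table of log2 values that the authors quantile normalized in GeneSpring GX. From the intensities, control and outlier spots were dropped, replicate spots were averaged as log2, and 43637 probes were quantile normalized. Detection meant well above background on 4 or more of 8 arrays. Accessions were matched to 12603 genes of a RefSeq table (ARS-UCD2.0), whose build differs from the array's, so no coordinates are given. The groups were tested with limma 3.58.1 under R 4.3.3 (2-sided, Benjamini-Hochberg over 33439 detected probes), tested on simulated data. Exact permutation tests used all 70 divisions of the fetuses, or all orders for correlations. The number of arrays limits the precision. P-values measure the spread between the arrays of a group, taken here as single fetuses chosen by weight. Slide could not enter a model.

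The factors and gene lists were chosen with earlier results of these data known. The text names all factors, any listed partner or target gene with an unadjusted limma p of at most 0.05 or without overlap, the target genes set against the factors (10 listed, APOB without a detected probe), and the gene most like each factor. HNF4A, NR5A2, CEBPG and PPARGC1A fall under none of these and were picked after their values were seen. Alternatives were normexp background correction (offset 50), scaling by the 75th percentile, the log2 table of the authors, dim probes kept, a stricter detection on all 8 arrays, trended and robust eBayes, slide position as a block, the mean over a gene's probes, Student's test and each fetus left out. Array brightness as a covariate and no normalization between arrays were added after seeing the data.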

Additional observations from a re-analysis of the deposited data

Results flagged for a closer look

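For the 13 probes of the factors and for 10 target genes (CPS1, TAT, IGFBP1, G6PC1, PCK1, AFP, ALB, TTR, SERPINA1 and FBP1), 46 sets of 4 fetuses were examined for a value far from the others of its group, which chance gives in about 5% of such sets, and 3 were found, none of them in a factor. HN fetus L3 was at 7.93 in G6PC1, where the other HN fetuses lay between 11.44 and 11.95. LN fetus L5 was at 6.44 in PCK1, with the other LN fetuses between 7.82 and 8.05. LN fetus L5 was also at 14.74 in CPS1, the first enzyme of the urea cycle, with the other LN fetuses between 15.23 and 15.32.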

How the results depend on the processing

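The PROX1 difference ran from -0.46 to -0.31 over the alternatives, several of which (the filters, eBayes settings, Student's test and slide position) keep the same signals and so the same difference. With no normalization between arrays, 0 factors reached a limma p of 0.05 before adjustment and 0 were without overlap, and CEBPA turned to -0.040 and ONECUT1 to -0.022. With array brightness as a covariate CEBPA was -0.044, and 2 factors reached that p, since FOXA3 joined PROX1 (0.36, limma adjusted p = 0.408). FOXA1 was 0.019 in the mean over its 2 probes. On their main probes FOXA1 and FOXA3 kept their direction with any fetus left out. Their other probes did not, running from -0.044 to 0.36 for FOXA1 and from -0.021 to 0.52 for FOXA3. With each fetus left out in turn, CEBPA ran from -0.092 (without L6) to 0.13, turning also without L9 and L2. CEBPB ran from -0.21 to 0.016 (without L5) and ONECUT1 from -0.027 (without L8) to 0.11, turning also without L10. GATA4 ran from -0.19 to 0.036 (without L10), turning also without L5 and L6. The number of factors lower in LN then ran from 2 (without L5) to 5, that reaching a p of 0.05 before adjustment and that without overlap from 1 to 2 (without L6), and that of genes at an adjusted p of 0.05 from 0 to 1, which was TFF2 without L6 (3.19 higher in LN, limma adjusted p = 0.0488). The causes were not tested. No paired analysis was possible because the fetus numbers of LN and HN share none, and the slide position used as a block is a place on the array, not a pairing of fetuses. The number of arrays, 8, limits the precision.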
